A study of Mus with 21 samples.

Results

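Marker genes of GABAergic interneurons and their precursors were followed through embryonic mouse brains with reduced dosage of the cohesin regulators *Nipbl* and *Wapl*. There were 9 of these genes, chosen by name: the homeobox genes *Dlx1*, *Dlx2*, *Dlx5*, *Dlx6* and *Lhx6*, the GABA synthesis and loading genes *Gad1*, *Gad2* and *Slc32a1*, and the neuropeptide gene *Sst*. All 9 were present among the 55335 genes of the deposited table, and all 9 were among the 30552 genes abundant enough to be tested. Poly(A) RNA came from whole brains of female embryos at E17.5, shortly before birth, with 1 library for each of 21 embryos. The groups were 5 *WT* embryos (*Wapl+/+ Nipbl+/+*), 7 *WaplΔ/+* embryos, 3 *Nipbl+/−* embryos and 6 double heterozygotes carrying both mutations. The *Wapl* deletion removes the promoter and the start of the gene, the *Nipbl* allele is a complete loss of function, and both were present in all tissues of the embryo, so that the brain is not the only organ with reduced dosage.

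Most inhibitory interneurons of the cerebral cortex are born in the ganglionic eminences of the ventral forebrain and migrate into the cortex before birth. DLX transcription factors act early in this lineage, LHX6 marks the cells that come from the medial ganglionic eminence, and the enzymes and transporter that make and package GABA mark GABAergic neurons of every brain region. Somatostatin appears as 1 of the subtypes derived from the medial ganglionic eminence matures, and it is also made by other neurons of the brain. Since whole brains were measured, fewer cells of a type and less RNA per cell cannot be told apart in any of the values given here.

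Total counts per library ranged from 25682566 to 35818767. Values for single libraries are normalized counts, that is counts scaled by edgeR's trimmed mean of M values (TMM) to a common library size, and fold changes are on the log2 scale. The test was edgeR's quasi-likelihood test, and a gene was called at a *P* below 0.10 after Benjamini-Hochberg adjustment over all 30552 genes. *Nipbl* stood at 54.3% ± 4.52 (SD, n = 3) of the *WT* mean in *Nipbl+/−* brains and at 54.8% ± 1.79 (SD, n = 6) in double heterozygotes, and *Wapl* at 46.7% ± 4.51 (SD, n = 7) in *WaplΔ/+* brains and 49.3% ± 1.9 (SD, n = 6) in double heterozygotes. The mitochondrial gene *mt-Nd3* separates the libraries into a low set, with under 20 counts, and a high set. The low set has 12 libraries (*WT* replicates 1 to 3, *WaplΔ/+* replicates 1 and 2, double-heterozygote replicates 1 to 4 and all 3 *Nipbl+/−*), the high set the other 9. The *Nipbl+/−* group therefore has no library in the high set. In the labels the 2 *Wapl* alleles of a heterozygote stand in either order, and in all 13 libraries with the *Wapl* deletion the *mt-Nd3* set matches that order. What the order stands for is not stated, so a split by *mt-Nd3* cannot be told apart from a split by it. *Gh*, a pituitary hormone gene, had 2056 counts in *WT* replicate 2, 778 in double-heterozygote replicate 6 and 215 in double-heterozygote replicate 5, and at most 21 in any other library. Forebrain, midbrain and hindbrain markers were detected in every library, from *Neurod6* (at least 3985 counts) to *En2* (at least 363) and *Hoxb4* (at least 31).

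*Dlx1* and *Dlx2* are neighbors on chromosome 2 (GRCm38.p6, 71528113 to 71533981 and 71543408 to 71546754), and *Dlx6* and *Dlx5* on chromosome 6 (6863334 to 6867970 and 6877801 to 6882068). *Gad2* (22621015 to 22693877), *Lhx6* (36081950 to 36105992), *Gad1* (70561303 to 70602014) and *Slc32a1* (158607260 to 158615747) lie apart from each other on chromosome 2, and *Sst* lies on chromosome 16 (23889573 to 23891342). Noncoding genes overlap several of these loci, among them *Dlx1as* over *Dlx1* and *Dlx6os1* over *Dlx6*. The strand setting of the counting was not stated, and without it reads from a gene and its antisense partner cannot be told apart.

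In *Nipbl+/−* brains the 5 homeobox genes were higher than in *WT*, *Sst* was lower, and *Gad1*, *Gad2* and *Slc32a1* were not called in either direction. The increases were of 12.4% to 22.8% by the fitted fold changes, and the decrease of *Sst* was to 84.8% of *WT*. Thus 6 of the 9 genes were called, where 11.2% of all tested genes were called (4.25% higher and 6.96% lower), and 18.6% of the 17303 genes that averaged 1 CPM (counts scaled to a library of fixed size) or more. The median log2 fold change of the 9 genes was 0.17, against -0.01 over all tested genes.

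*Dlx1*, which acts with *Dlx2* in specifying GABAergic neurons of the forebrain, had normalized counts of 4332, 4384, 4395, 4195 and 4196 in *WT* replicates 1 to 5 and of 5427, 4425 and 4709 in *Nipbl+/−* replicates 1 to 3. All *Nipbl+/−* libraries lay above all *WT* libraries, though replicate 2 did so by a narrow margin. The log2 fold change was 0.17 (SE 0.0497, edgeR adjusted *P* = 0.0451). *Dlx2*, its neighbor, had 901, 830, 901, 871 and 856 normalized counts in *WT* and 1113, 899 and 1090 in *Nipbl+/−* libraries, and here replicate 2 fell inside the *WT* range. Its log2 fold change was 0.24 (SE 0.0598, edgeR adjusted *P* = 0.0185).

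*Dlx5* and *Dlx6*, which act later in the same lineage and are targets of DLX1 and DLX2, repeated this order of libraries. *Dlx5* had 482, 482, 484, 432 and 477 normalized counts in *WT* and 642, 470 and 583 in *Nipbl+/−* brains, with replicate 2 again within the *WT* range. The log2 fold change was 0.25 (SE 0.0787, edgeR adjusted *P* = 0.0556). *Dlx6* had 290, 308, 326, 281 and 291 normalized counts in *WT* and 404, 327 and 377 in *Nipbl+/−* brains. The groups did not overlap, although *Nipbl+/−* replicate 2 exceeded *WT* replicate 3 by less than the counting error of either. *Dlx6* had the largest of the 9 log2 fold changes in this comparison, 0.30 (SE 0.0792, edgeR adjusted *P* = 0.0268).

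*Lhx6*, which specifies interneurons of the medial ganglionic eminence, including those that later make somatostatin or parvalbumin, had 1700, 1586, 1761, 1572 and 1572 normalized counts in *WT* and 1915, 1785 and 1908 in *Nipbl+/−* brains. Every *Nipbl+/−* library was above every *WT* library, replicate 2 by a narrow margin. The log2 fold change was 0.18 (SE 0.0461, edgeR adjusted *P* = 0.0187), and *Lhx6* stayed called in each of the 8 fits that left out 1 library.

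*Sst*, which encodes the inhibitory neuropeptide somatostatin, went the other way. Its normalized counts were 1964, 1832, 2054, 1912 and 1998 in *WT* and 1743, 1720 and 1524 in *Nipbl+/−* replicates. All *Nipbl+/−* libraries were below all *WT* libraries. The log2 fold change was -0.24 (SE 0.0494, edgeR adjusted *P* = 0.00572).

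*Gad1* and *Gad2* encode the 2 glutamate decarboxylases that make GABA, and *Slc32a1* encodes the transporter that loads it into synaptic vesicles. *Gad1* had between 5348 and 5662 normalized counts in *WT* and 5678, 6061 and 5390 in *Nipbl+/−* brains, *Gad2* between 2993 and 3371 against 3413, 3121 and 3311, and *Slc32a1* between 2206 and 2498 against 2415, 2549 and 2235. For each of the 3 genes the groups overlapped. The log2 fold changes were 0.05 for *Gad1* (95% interval -0.03 to 0.13), 0.05 for *Gad2* (-0.03 to 0.13) and 0.01 for *Slc32a1* (-0.09 to 0.10), with edgeR adjusted *P* of 0.551, 0.556 and 0.961. These intervals end below the fitted log2 fold change of each of the 5 homeobox genes, but the difference between the genes was not tested.

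**Figure D1:**
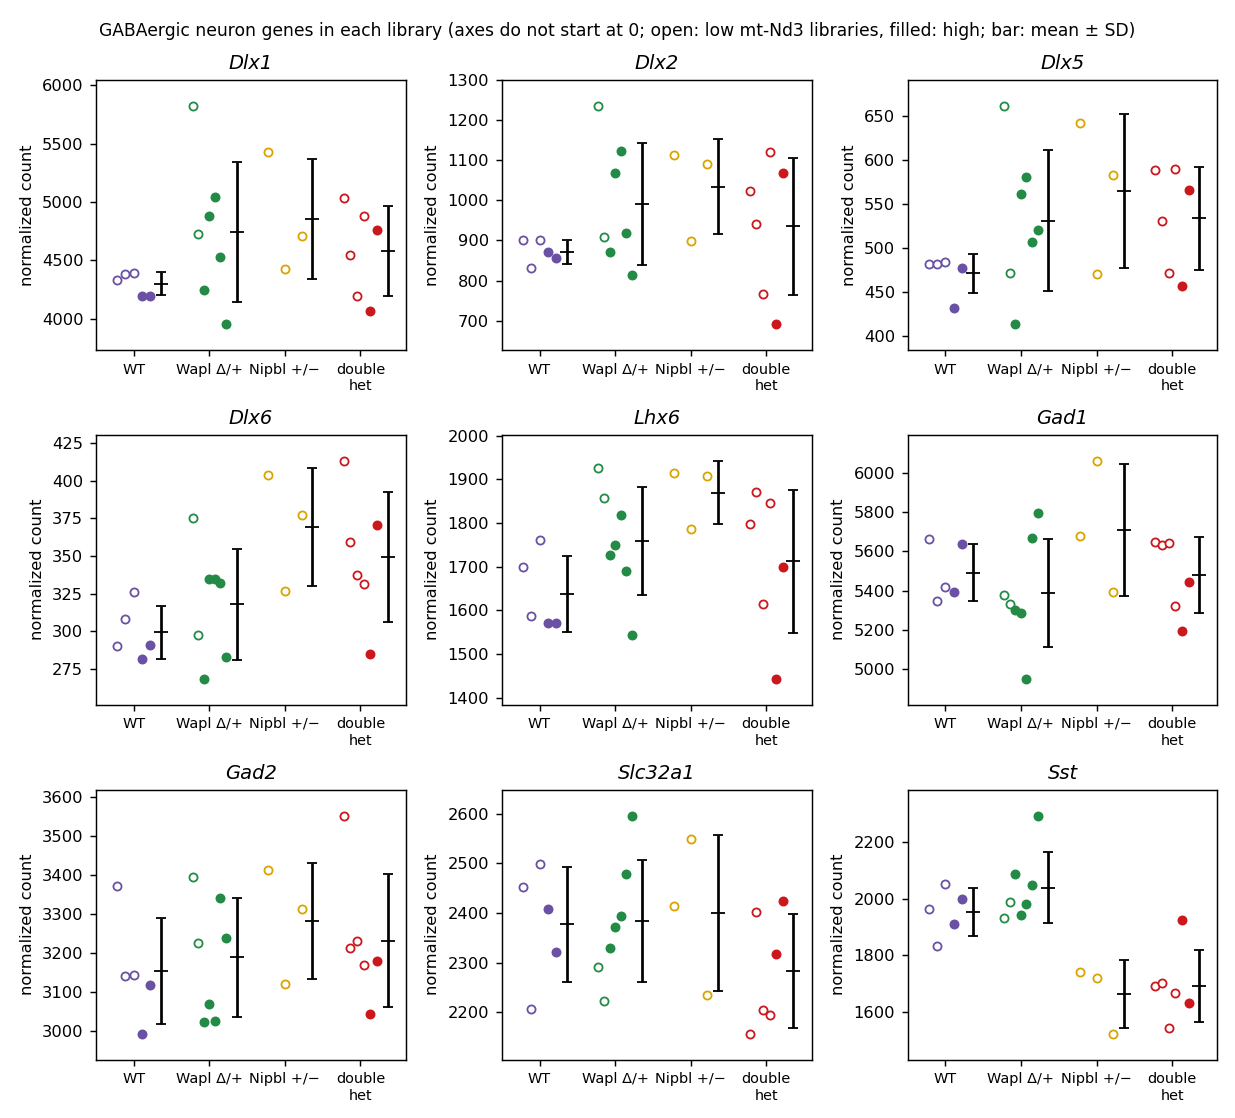
Normalized counts (vertical axis, not starting at 0) of the 9 genes in each of the 21 libraries by genotype, with the mean and SD beside each group, and open symbols for the libraries with low *mt-Nd3*. *Nipbl+/−* libraries sit above all *WT* libraries for *Dlx1*, *Dlx6* and *Lhx6*, replicate 2 by narrow margins, and below all of them for *Sst*. For *Gad1*, *Gad2* and *Slc32a1* they overlap. The share of all tested genes with groups apart is not given here.

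The calls on the homeobox genes were less stable than the call on *Sst*. *Sst* was called in all 17 other fits of the *Nipbl+/−* comparison at the threshold of 0.10, with log2 fold changes from -0.27 to -0.17. *Dlx1*, *Dlx2*, *Dlx5*, *Dlx6* and *Lhx6* were called in 11, 14, 10, 13 and 14 of those 17 fits and were higher in all of them. Without *Nipbl+/−* replicate 1, the library with the highest level of each of the 5 genes in its group, only *Lhx6* and *Sst* were called, and the log2 fold changes of *Dlx1* and *Dlx5* fell from 0.17 to 0.083 and from 0.25 to 0.15. Calls over all tested genes fell as well in that fit, to 1828 from 3422. Among the libraries with low *mt-Nd3* alone (3 *WT* against 3 *Nipbl+/−*), *Sst* was the only call (log2 fold change -0.24, edgeR adjusted *P* = 0.0475). With the *mt-Nd3* set as a term *Dlx2* and *Sst* were called. Over all tested genes these fits called 1881 and 2426, also fewer than 3422. A fit of all 4 groups together called *Dlx6*, *Lhx6* and *Sst*, and 1658 of all tested genes. Its log2 fold changes of *Dlx1* (0.20), *Dlx2* (0.27) and *Dlx5* (0.28) were nevertheless not smaller than those given above. In the low *mt-Nd3* libraries the log2 fold changes of the 5 genes were between 0.15 for *Dlx1* and 0.26 for *Dlx6*.

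In *WaplΔ/+* brains none of the 9 genes was called, where 2.22% of all tested genes were. *Dlx1*, *Dlx2*, *Dlx5* and *Lhx6*, all with higher means than *WT*, had an unadjusted *P* under 0.05 in the edgeR fit. So did 4780 of the 30552 tested genes. DESeq2 called none of the 9, and 1422 of the 30552. The *WaplΔ/+* libraries were spread widely for the homeobox genes. *Dlx1* ranged from 3956 to 5824 normalized counts over the 7 *WaplΔ/+* libraries (median 4723), *Dlx2* from 815 to 1235 (median 919), *Dlx5* from 414 to 661 (median 520), *Dlx6* from 268 to 375 (median 332) and *Lhx6* from 1544 to 1925 (median 1749). For every one of these genes at least 3 *WaplΔ/+* libraries lay above the *WT* range and 1 lay below it. Replicates 1 and 5 were above all *WT* libraries for all 5 genes, whereas replicate 7 was below them for 3. The log2 fold changes were 0.14 for *Dlx1* (edgeR adjusted *P* = 0.280), 0.19 for *Dlx2* (0.259), 0.17 for *Dlx5* (0.318), 0.09 for *Dlx6* (0.610) and 0.11 for *Lhx6* (0.289). Those of *Gad1*, *Gad2* and *Slc32a1* were -0.02, 0.02 and 0.01. *Sst*, lower in *Nipbl+/−* brains, ranged from 1930 to 2293 normalized counts in *WaplΔ/+* libraries (median 1989), with a log2 fold change of 0.07 (95% interval -0.02 to 0.15, edgeR adjusted *P* = 0.475).

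In double heterozygotes *Sst* was the only one of the 9 genes that edgeR called against *WT* (DESeq2 called *Dlx6* as well), where 3.28% of all tested genes were called and 2.46% were called lower. Its normalized counts ran from 1542 to 1924 (median 1679), and 5 of the 6 libraries were below the *WT* range. The exception was replicate 5, with 1924. The log2 fold change was -0.19 (SE 0.0511, edgeR adjusted *P* = 0.0574). That *P* was close to the threshold. Without *WT* replicate 1, 3, 4 or 5 or double-heterozygote replicate 1 or 4 the gene was no longer called, with edgeR adjusted *P* up to 0.158. Its log2 fold change in those fits was between -0.20 and -0.17. Without any of the other 5 libraries it was called, with edgeR adjusted *P* down to 0.00102. Over all tested genes the fits without the call had 454 to 703 calls and those with it 633 to 2504, against 1001 with every library. The same comparison within the libraries with low *mt-Nd3* gave a log2 fold change of -0.23 (edgeR adjusted *P* = 0.0303), and within those with high *mt-Nd3* (2 against 2) one of -0.12 (edgeR adjusted *P* = 0.852).

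The homeobox genes of double heterozygotes had means above *WT* but were not called by edgeR. Of these genes DESeq2 called *Dlx6*, with a log2 fold change of 0.23 (DESeq2 adjusted *P* = 0.0881), where it called 1480 of the 30552 tested genes. *Dlx6* was at 117% ± 14.4 (SD, n = 6) of the *WT* mean, *Dlx5* at 113% ± 12.3, *Dlx2* at 107% ± 19.6, *Dlx1* at 106% ± 8.93 and *Lhx6* at 105% ± 9.95. The smallest edgeR adjusted *P* values were 0.156 for *Dlx6* (log2 fold change 0.23) and 0.182 for *Dlx5* (0.19). Replicates 1, 2 and 4 were above all *WT* libraries for all 5 genes, and replicate 5 was above for none and below for 3, with 692 normalized counts of *Dlx2* and 1443 of *Lhx6*, the lowest of all 21 libraries for both. Without replicate 5, *Dlx1*, *Dlx5* and *Dlx6* were called as well as *Sst*, and without replicate 3 *Dlx5* and *Sst*. Calls over all tested genes also rose in these 2 fits, to 2504 and 1687, against 1001 with every library. *Gad1* was at 99.8% ± 3.53, *Gad2* at 102% ± 5.41 and *Slc32a1* at 96.0% ± 4.81 of the *WT* mean, with edgeR adjusted *P* of at least 0.688.

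Compared directly with *Nipbl+/−* brains, double heterozygotes had none of the 9 genes called, where 0.00655% of all tested genes were. None of the 9 had an unadjusted *P* under 0.05 in this edgeR fit, as 1259 of all tested genes did. DESeq2 called none of the 9, and 5 of the 30552 tested genes. The log2 differences between the groups, double heterozygote over *Nipbl+/−*, were between -0.14 and -0.07 for the 4 *Dlx* genes, -0.12 for *Lhx6* (95% interval -0.26 to 0.01) and 0.03 for *Sst* (-0.10 to 0.17). The interval for *Dlx1*, -0.22 to 0.06, includes both no difference and one as large as the 0.17 by which *Nipbl+/−* brains exceeded *WT*. Against *WaplΔ/+* brains, *Sst* was the only gene of the 9 called, where 1.02% of all tested genes were called and 0.812% were called lower. All 6 double heterozygotes, between 1542 and 1924 normalized counts, lay below all 7 *WaplΔ/+* libraries, the lowest of which had 1930. The log2 difference was -0.26 (SE 0.0496, edgeR adjusted *P* = 0.0141), and *Sst* stayed called in each of the 13 fits that left out 1 library. Within the *mt-Nd3* sets the difference was -0.25 among low libraries (edgeR adjusted *P* = 0.272) and -0.21 among high ones (edgeR adjusted *P* = 0.565).

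The interaction of the genotypes, which is the log2 difference of double heterozygotes from *WT* less the summed differences of the single heterozygotes, was below 0 for all 9 genes. Its median over all tested genes was also below 0, at -0.02, and at -0.03 for those averaging 1 CPM or more. Among the members it was -0.36 for *Dlx2*, -0.28 for *Dlx5*, -0.26 for *Lhx6*, -0.25 for *Dlx1*, -0.19 for *Dlx6*, -0.10 for *Slc32a1* and -0.06 for each of *Gad1*, *Gad2* and *Sst*. None was called by edgeR or DESeq2. The edgeR fit called 0% of all tested genes, and the DESeq2 fit called 793 of the 30552. *Dlx1*, *Dlx2* and *Lhx6* had unadjusted *P* values under 0.05 in the edgeR fit, as did 4221 of all tested genes. Their edgeR adjusted *P* values were 0.302, 0.312 and 0.205.

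**Figure D2:**
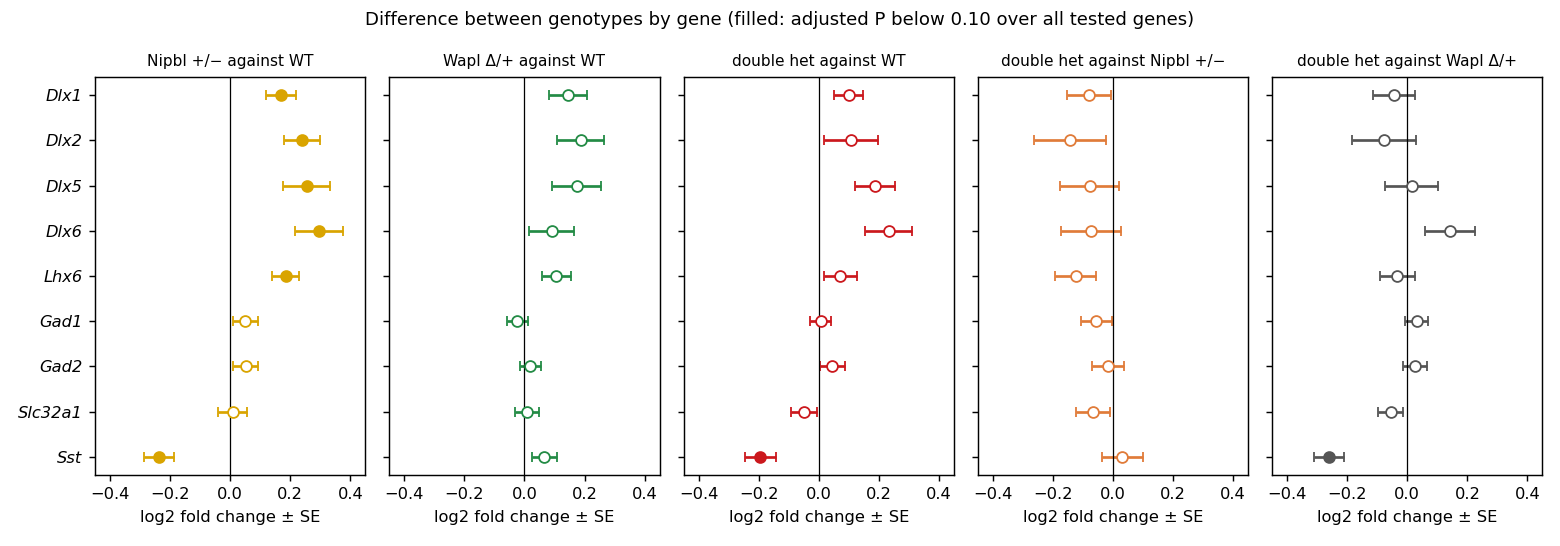
Log2 fold change ± SE (horizontal axis) of the 9 genes in 5 comparisons of genotypes, with filled symbols for genes called at an edgeR adjusted *P* below 0.10. The 5 homeobox genes are called to the right of 0 against *WT* in *Nipbl+/−* brains alone, and *Sst* is called to the left of 0 in 3 panels, at -0.24, -0.19 and -0.26.

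By group means, *WT* brains had the lowest and *Nipbl+/−* brains the highest level of each of the 5 homeobox genes. *WaplΔ/+* brains and double heterozygotes lay between them, double heterozygotes below *WaplΔ/+* for *Dlx1*, *Dlx2* and *Lhx6* and above for *Dlx5* and *Dlx6*. No neighbors in these orders differed by more than the SD of both groups. For *Sst* the order was *Nipbl+/−*, double heterozygote, *WT* and *WaplΔ/+* from low to high, and the step from double heterozygotes to *WT*, of 259 normalized counts, was the only step between neighboring groups, over the 9 genes, that exceeded both SDs (127 and 84.8). These comparisons share the *WT* libraries and are therefore not independent of one another.

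Libraries of the same mutant genotype varied more in the homeobox genes than *WT* libraries did. The coefficient of variation of *Dlx1* was 2.30% among *WT* libraries, where counting alone would give 1.5%, and 12.7% in *WaplΔ/+*, 10.6% in *Nipbl+/−* and 8.38% in double-heterozygote brains. For *Dlx2* it was 3.50% in *WT*, with 3.34% from counting alone, and 15.4%, 11.4% and 18.3% in the 3 mutant groups. *Dlx5* and *Dlx6* also varied less in *WT* (4.74% and 5.91%) than in any mutant group (10.9% to 15.4% and 10.6% to 12.3%). *Lhx6* did not follow this pattern throughout, with 5.33% in *WT* and 3.9% in *Nipbl+/−* brains. The GABA synthesis and loading genes varied by 2.66% to 6.58% in all 4 groups, and *WT* had the lowest value for each of them. The margins were narrow for *Gad2* (4.33% in *WT*, 4.51% in *Nipbl+/−*) and *Slc32a1* (4.88% in *WT*, 5.01% in double heterozygotes). *Sst* also varied least in *WT*, at 4.34% against 6.16% to 7.49% in the mutant groups. The lower spread in *WT* was thus not particular to the homeobox genes. Differences in spread were not tested.

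The 4 *Dlx* genes varied together from library to library. Over the 21 libraries Pearson's *r* of log2 CPM was between 0.69 and 0.90 for their 6 pairs (median 0.83), and between 0.76 and 0.88 after each genotype's mean had been removed. *Lhx6* followed the *Dlx* genes with *r* between 0.64 and 0.82. *Gad1* and *Slc32a1* did not: their *r* with the *Dlx* genes ran from -0.27 to 0.13. *Gad2* did so in part, with *r* of 0.36 to 0.64. *Sst* was negatively correlated with each *Dlx* gene, from -0.27 for *Dlx2* to -0.64 for *Dlx6*, and with *Lhx6* (-0.34), and these signs stayed negative within genotypes. The points of these correlations share their libraries, with their depth and their scaling, and with the variation between embryos.

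**Figure D3:**
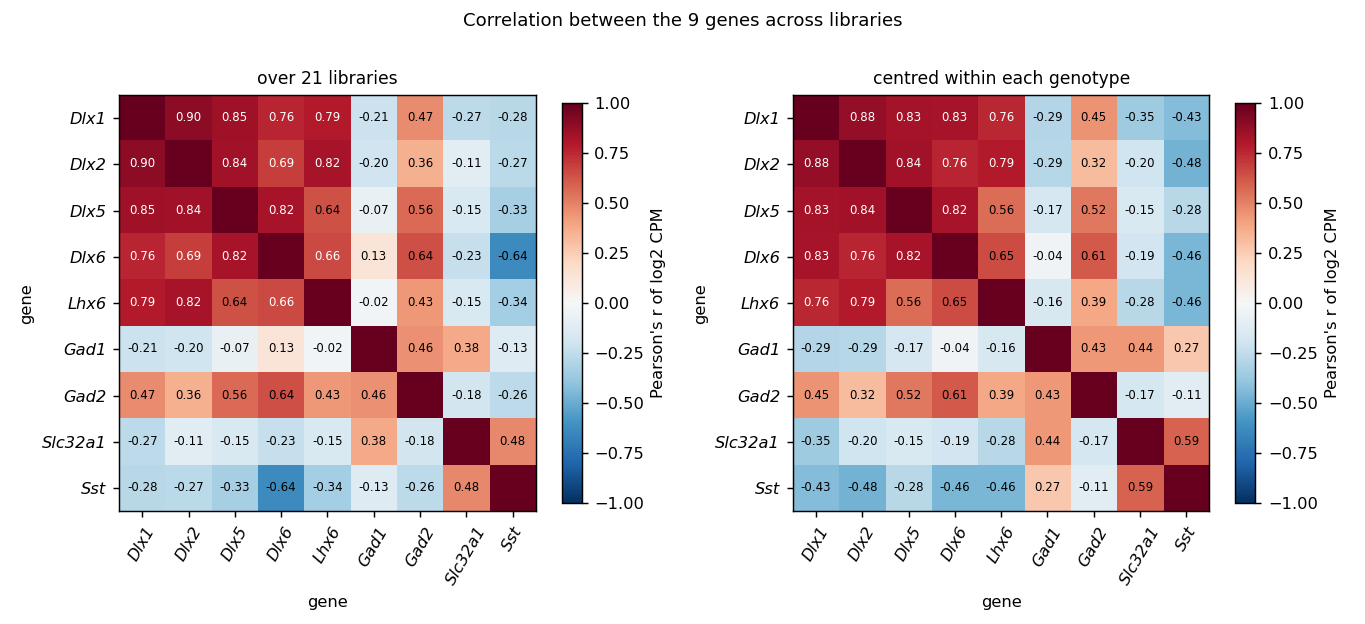
Pearson's *r* of log2 CPM (color scale, -1 to 1) between the 9 genes over the 21 libraries (left) and after subtracting each genotype's mean (right). The 4 *Dlx* genes and *Lhx6* form a block of high *r* in both panels, *Gad2* is the only GABA synthesis or loading gene with positive *r* to all of that block, and *Sst* has negative *r* to it.

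Ratios within a library do not depend on its scaling. The summed counts of the 4 *Dlx* genes, divided by the summed counts of *Gad1*, *Gad2* and *Slc32a1*, gave log2 ratios from -0.94 to -0.83 in *WT*, -0.94 to -0.60 in *Nipbl+/−*, -1.06 to -0.45 in *WaplΔ/+* and -0.94 to -0.63 in double-heterozygote libraries. These ranges overlap, and the *WT* range is the narrowest. *Sst* and *Lhx6* both mark cells of the medial ganglionic eminence lineage, but other neurons also make *Sst*, so their ratio is not confined to that lineage. The ratio of *Sst* to *Lhx6* counts was between 1.15 and 1.27 in *WT* and between 0.798 and 0.964 in *Nipbl+/−* libraries. These ranges had to be apart, since every *Nipbl+/−* library was below all *WT* libraries for *Sst* and above them for *Lhx6*. The ratio was between 0.903 and 1.33 in double heterozygotes, with 5 of 6 libraries inside the *Nipbl+/−* range and replicate 5 above all *WT* libraries. In *WaplΔ/+* libraries it reached 1.49, with a median of 1.11, and overlapped with *WT*. A ratio of this kind shows unequal change of the genes, not which of them changed.

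**Figure D4:**
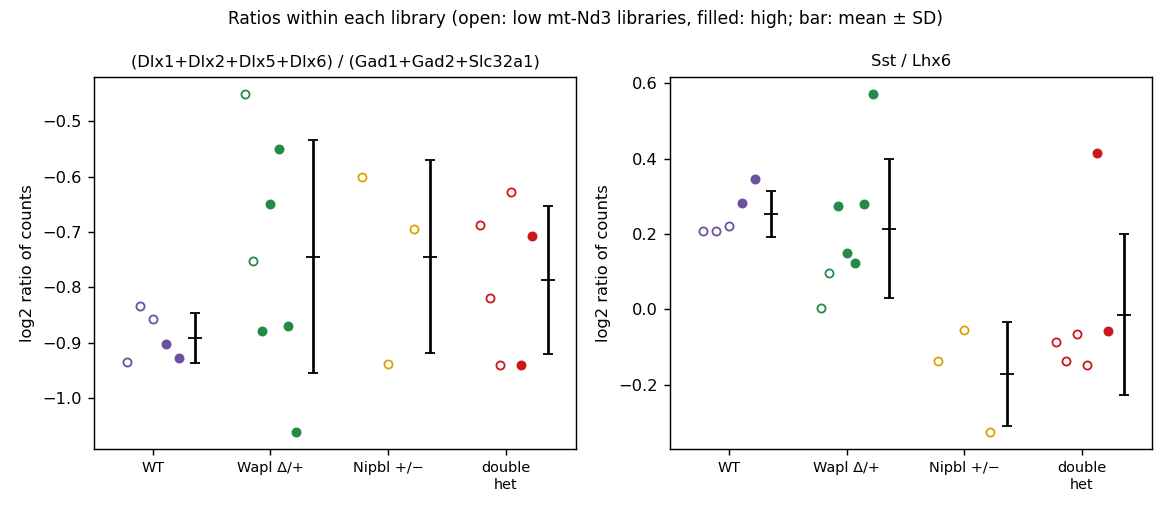
Log2 ratios of counts within each library (vertical axis) for the summed *Dlx* genes over *Gad1*, *Gad2* and *Slc32a1* (left) and for *Sst* over *Lhx6* (right), with the mean and SD beside each group and open symbols for low *mt-Nd3*. On the right all 3 *Nipbl+/−* libraries lie below all 5 *WT* libraries, and a single double heterozygote, replicate 5, stands far above the other 5.

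The genes most like the mean of the *Dlx* genes and *Lhx6*, of 17294 genes averaging 1 CPM or more over the 21 libraries, included *Sema5b*, *Sox1*, *Gripap1*, *Wbp1l*, *Dlx1as*, *Nes* and *Chd4*, with Pearson's *r* from 0.93 to 0.94. *Sox1* and *Nes* are widely used as markers of neural progenitors. In *Nipbl+/−* brains *Sema5b* (log2 fold change 0.29), *Sox1* (0.26), *Nes* (0.22), *Wbp1l* (0.20), *Chd4* (0.19) and *Dlx1as* (0.16) were called higher, and *Gripap1* (0.08) was not called. Of all tested genes 4.25% were called higher there. The ranking used the same *Nipbl+/−* and *WT* libraries, so these calls are not independent of the choice of genes. The genes most like *Gad1*, *Gad2* and *Slc32a1* reached *r* of 0.71 to 0.80 and included *Dnajb4*, *Rasa4*, *C230014O12Rik*, *Dlk2*, *Fbxo27*, *Dnaaf3* and *Lrtm2*. None of these 7, ranked over the same libraries, was called in *Nipbl+/−* brains, where 11.2% of all tested genes were. Those most like *Sst* were *Pcx*, *Pcp4*, *Pcdhb8*, *Mfge8* and *Gm49948* (*r* from 0.89 to 0.90), and within genotypes their *r* fell to between 0.55 and 0.71.

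Noncoding genes at the loci were measured beside the members. *Dlx1as*, antisense to *Dlx1*, had 1085 ± 37.8 (SD, n = 5) normalized counts in *WT* and 1213 ± 88.9 (SD, n = 3) in *Nipbl+/−* brains, a log2 fold change of 0.16 (edgeR adjusted *P* = 0.0679). *Dlx6os2* had between 57.4 and 65.8 in *WT* and between 81.6 and 103 in *Nipbl+/−* libraries, a log2 fold change of 0.50 (edgeR adjusted *P* = 0.0222). The more abundant of the 2 table entries named *Dlx6os1*, the noncoding RNA whose gene spans *Dlx6*, was not called, with a log2 fold change of 0.23 (edgeR adjusted *P* = 0.139). *Gad1os* had a median of 22.4 normalized counts in *WT* and a log2 fold change of 0.01. *Gm14204*, which overlaps *Slc32a1*, was called higher (log2 fold change 0.30, edgeR adjusted *P* = 0.00734) while *Slc32a1* was not called. The 42 genes nearest to the members, 3 on each side of each locus, had a median log2 fold change of -0.01 in *Nipbl+/−* brains. Of these neighbors 5 were called higher and 6 lower, where 4.25% and 6.96% of all tested genes were. Genes averaging 1 CPM or more were called in 18.6% of cases. Neighbors called lower included *Itga6* and *Pdk1* beyond *Dlx1* and *Dlx2* (-0.24 and -0.20), *Tac1* beyond *Dlx5* and *Dlx6* (-0.37) and *Bcl6* beyond *Sst* (-0.58).

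Other genes of the lineage were read from lists of known genes. Calls in this and the following lists stand beside those over all tested genes. These were 4.25% higher and 6.96% lower in *Nipbl+/−* brains, and 18.6% in either direction for genes averaging 1 CPM or more. In either direction they were 2.22% in *WaplΔ/+* brains and 3.28% in double heterozygotes. Of 24 transcription factors of the ventral forebrain, 8 were called higher and 5 lower in *Nipbl+/−* brains, with a median log2 fold change of 0.13. Those called higher included *Nkx2-1*, which acts upstream of *Lhx6* in the medial ganglionic eminence (281 to 415 normalized counts in *WT* and 373 to 538 in *Nipbl+/−* libraries, which overlap, log2 fold change 0.36), *Lhx8*, its relative in cholinergic neurons of that region (0.43), *Sp9* (0.41) and *Six3* (0.36). Among the genes called lower were *Etv1* (-0.52), *Sox6* (-0.32), which acts after *Lhx6* in maturing interneurons, *Prox1* (-0.26) and *Satb1* (-0.14). *Sp8* had a log2 fold change of -0.19 and was not called. None of the 24 was called in *WaplΔ/+* brains (median 0.09), and 3 were called higher and 3 lower in double heterozygotes (median 0.09), among them *Sp9* (0.35) and *Lhx8* (0.31) higher and *Etv1* (-0.30) and *Sp8* (-0.23) lower.

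Among 18 further genes of interneuron subtypes, 9 were called lower and none higher in *Nipbl+/−* brains, with a median log2 fold change of -0.28. *Npy*, a neuropeptide gene shared by many somatostatin neurons, fell furthest of the called genes. It had 810 to 934 normalized counts in *WT* (median 836), 363 to 586 in *Nipbl+/−* (median 419), 384 to 550 in double-heterozygote (median 450) and 624 to 912 in *WaplΔ/+* libraries (median 854). *Nipbl+/−* and double-heterozygote libraries did not overlap with *WT*, and *WaplΔ/+* libraries did. The log2 fold changes of *Npy* were -0.90 (edgeR adjusted *P* = 7.30e-05), -0.85 (4.51e-06) and -0.06 (0.710), and double heterozygotes differed from *WaplΔ/+* brains by -0.79 (edgeR adjusted *P* = 5.06e-05). The calcium-binding protein gene *Calb1* (-0.59), *Cck* (-0.57), *Ndnf* (-0.45), *Reln* (-0.42), *Tac1* (-0.37), *Calb2* (-0.28), *Nos1* (-0.28) and *Kit* (-0.17) were the other 8 called genes in *Nipbl+/−* brains. Against *WT*, double heterozygotes had 8 of the 18 called lower and *WaplΔ/+* brains had 1, *Reln* (-0.33). In double heterozygotes the largest decreases after *Npy* were those of *Calb1* (-0.53), *Cck* (-0.40) and *Nos1* (-0.37). Several of these genes are also expressed by other neurons of the brain, *Reln* by Cajal-Retzius cells and *Calb1* by Purkinje cells among them.

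Genes of interneuron migration and of the inhibitory synapse fell in *Nipbl+/−* brains in 11 of 21 cases and rose in none (median log2 fold change -0.16). *Cxcl12*, the chemokine that guides migrating interneurons, had a log2 fold change of -0.38, *Plxna4* of -0.38, *Sema3a* of -0.29 and *Erbb4*, a neuregulin receptor of interneurons, of -0.16 (edgeR adjusted *P* = 0.0983). The list had 4 genes called lower in double heterozygotes, among them *Slc6a11* (-0.42), and 1 in *WaplΔ/+* brains, *Epha4* (-0.16). Striatal projection neurons are the other large GABAergic population born in the ganglionic eminences, and of 17 of their genes 2 were called higher and 6 lower in *Nipbl+/−* brains, with *Zfp503* (0.35) higher and *Rgs9* (-0.56) and *Penk* (-0.51) lower. In *WaplΔ/+* brains 3 were called lower, *Rgs9* (-0.50), *Pde10a* (-0.32) and *Foxp1* (-0.18), and in double heterozygotes 4 lower and 1 higher.

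GABAergic neurons outside the telencephalon also carry *Gad1*, *Gad2* and *Slc32a1*, and of 16 genes that specify them 9 were called higher in *Nipbl+/−* brains and none lower (median log2 fold change 0.25). *Lhx5* (0.45), *Gata3* (0.40), a factor of midbrain and hindbrain GABAergic neurons, and *Tal2* (1.08) had the smallest *P* values of the list. *Tal2* was at a low level, with 27.8 to 40.0 normalized counts in *WT* and 36.9 to 100 in *Nipbl+/−* libraries, which overlap. In double heterozygotes 6 of the 16 genes were called higher, among them *Gata3* (0.33), *Lhx5* (0.32) and *En1* (0.31), and in *WaplΔ/+* brains 1, *Lbx1* (0.44). The summed normalized counts of the list ran from 5012 to 6015 in *WT* and from 5902 to 6756 in *Nipbl+/−* libraries.

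Genes of other cells of the brain were read in the same way. With 11.2% of all tested genes called in *Nipbl+/−* brains, and 18.6% of those averaging 1 CPM or more, a few calls in a short list are near the general share. In *Nipbl+/−* brains 6 of 15 genes of cortical glutamatergic neurons were called higher and 1 lower (*Neurog2* 0.67, among those higher), none of 13 pan-neuronal genes higher and 5 lower (*Nefm* -0.29), 2 of 11 progenitor genes higher and 2 lower (*Sox2* 0.22 and *Slc1a3* -0.37), and 4 of 8 genes of the oligodendrocyte lineage lower (*Pdgfra* -0.60). No meningeal or vascular gene of 9 and no choroid plexus gene of 6 was called in that comparison, 2 of 9 blood and microglia genes were called lower (*Cx3cr1* -0.59), 1 of 9 tested pituitary genes was called higher, and 3 of 10 markers of brain regions and neurons were called higher and 1 lower. The summed pan-neuronal counts ran from 252646 to 262859 in *WT* and from 237137 to 249960 in *Nipbl+/−* libraries, without overlap, and the summed progenitor counts from 41502 to 43165 and from 37879 to 43274, with overlap. In *WaplΔ/+* brains 3 of the 9 meningeal and vascular genes were called higher, with summed counts of 20801 to 32909 against 20460 to 24979 in *WT*. Double heterozygotes had 5 of the 8 genes of the oligodendrocyte lineage called lower against *WT* (*Olig1* -0.31 and *Sox10* -0.35) and 1 pan-neuronal gene called in each direction (*Elavl4* 0.14 and *Syt1* -0.19). The part of these cells in the values of the 9 genes was not tested.

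**Figure D5:**
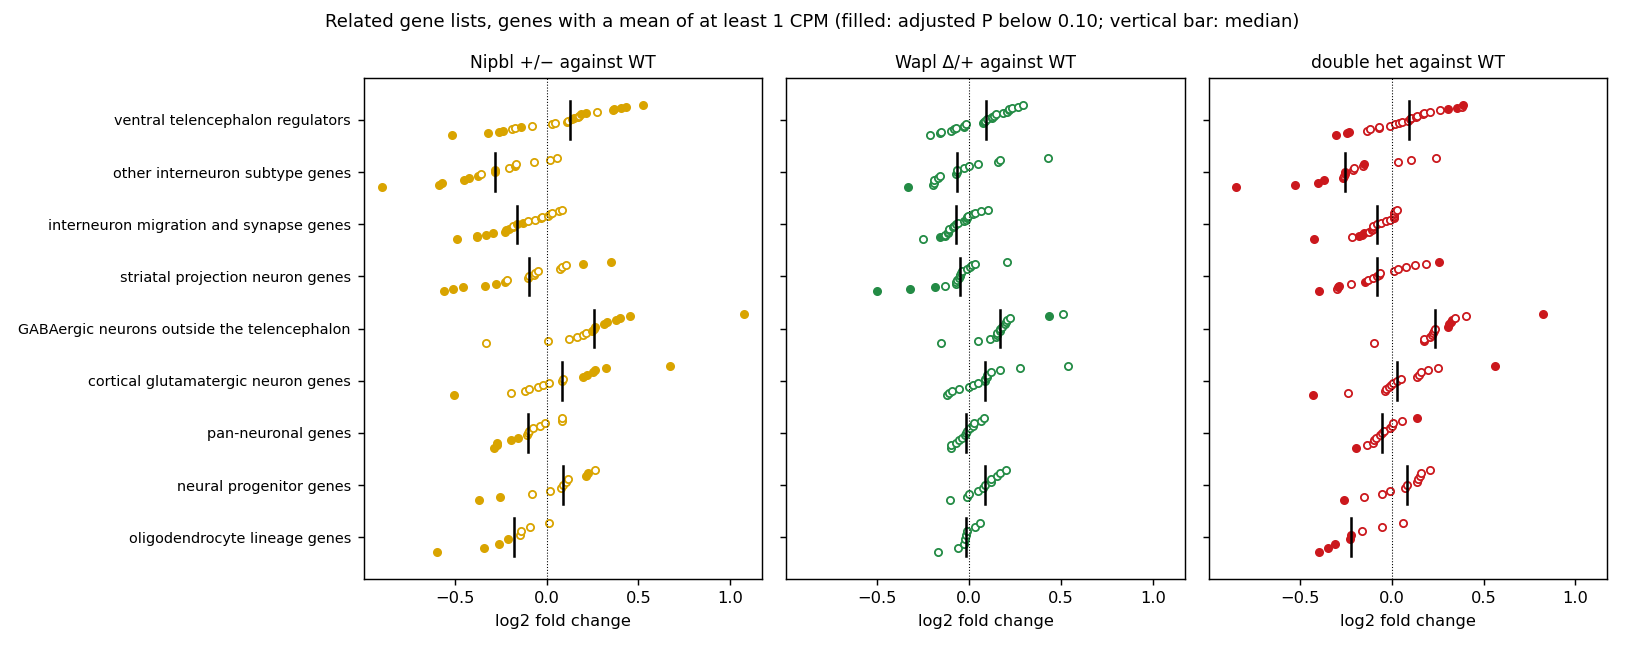
Log2 fold change against *WT* (horizontal axis, the same in all panels) of the genes of 9 lists with a mean of at least 1 CPM, in *Nipbl+/−* (left), *WaplΔ/+* (middle) and double-heterozygote brains (right), with filled symbols for called genes and a vertical bar at the median. In *Nipbl+/−* brains called genes of other interneuron subtypes all lie left of 0, down to *Npy* at -0.90, and called genes of GABAergic neurons outside the telencephalon all lie right of it.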

How the data were processed

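Poly(A) RNA of whole brains from 21 female embryos at E17.5 was sequenced, with groups taken from the sample labels. The authors trimmed paired-end reads with cutadapt 2.4, mapped them to GRCm38.p6 with STAR 2.5.3a, counted them per gene with featureCounts (Subread 1.6.4 in the processing notes), and deposited raw counts without normalization. The annotation and strand setting are not given in the sources used here. A further *Nipbl+/−* library, left out by the study, was not analysed here.

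The test was the quasi-likelihood test of edgeR 4.0.16 (R 4.3.3), with TMM factors estimated in each fit. A gene entered it if its normalized counts over the 21 libraries added up to 10 or more, which left 30552 genes for the Benjamini-Hochberg adjustment. A comparison of 2 groups used the libraries of those groups alone, the interaction those of all 4. Labels do not give litters, so *P* values measure the spread between these embryos. No 2 libraries of the same group agreed within sampling noise.

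The 9 members, the lists of related genes and the tests were chosen with earlier results of these data known. The genes named are the members, *Wapl* and *Nipbl*, antisense partners, neighbors, for each list and comparison the called genes with the 3 smallest *P* among those averaging 1 CPM or more, a few regulators fixed by name, and the genes most correlated with the members. *Gh*, *Prox1*, *Sox6*, *Satb1*, *Cck*, *Ndnf*, *Reln*, *Calb2*, *Nos1* and *Kit*, where this rule does not name them, were named after their values were seen. Alternatives were DESeq2 1.42.0, its size factors, 2 other filters, a threshold of 0.05, the replicate number as a block, 1 fit for the 4 groups, the *mt-Nd3* sets, leaving out each library and, chosen after seeing the data, TMM factors of all 21 libraries. Gene coordinates came from a RefSeq table for GRCm38.p6 that matched 23984 tested genes by symbol. Levels are not compared between genes, since exonic lengths were not used here. Some genes that the rule names are not reported here.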

Additional observations from a re-analysis of the deposited data

Results flagged for a closer look

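A library stood far from the rest of its group for 2 of the 27 combinations of gene and group with at least 4 libraries, and chance alone would give about 1 in 20. *Dlx5* was at 432 normalized counts in *WT* replicate 4, where the other 4 *WT* libraries lay between 477 and 484. *Gad2* was at 3552 normalized counts in double-heterozygote replicate 1, where the other 5 lay between 3043 and 3231.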

How the results depend on the processing

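The *Nipbl+/−* comparison called 6 members. It called 3 with all 4 groups in one fit, 2 with the *mt-Nd3* set as a term, 1 in the libraries with low *mt-Nd3* alone and 2 to 6 when a library was left out. Over all genes these fits called 1658, 2426 and 1881, against 3422. Replicate numbers share no stated litter or batch, and in no comparison did every same-numbered pair have a correlation of deviations over 0.1 (0 of 3 pairs for *Nipbl+/−* and 2 of 5 for *WaplΔ/+* against *WT*, 0 of 5 for double heterozygotes against *WT*, 1 of 3 against *Nipbl+/−* and 3 of 6 against *WaplΔ/+*), so they were not taken as pairs. The replicate block gave 2 calls in the *Nipbl+/−* comparison, 3 in *WaplΔ/+* brains (*Dlx1*, *Dlx2* and *Lhx6*, from 0) and 0 in double heterozygotes against *WT*. Over all genes the block called 1893, 1991 and 535 in these comparisons, against 3422, 677 and 1001 without it. Double heterozygotes against *WT*, with 1 call, had 2 by DESeq2 (*Dlx6* and *Sst*), 0 at the threshold of 0.05, 0 in the libraries with high *mt-Nd3* alone and 0 to 4 with a library left out. The high *mt-Nd3* libraries gave 1 call there over all genes. Double heterozygotes against *WaplΔ/+*, with 1 call, had 0 in the low and 0 in the high *mt-Nd3* libraries alone. Over all genes these called 24 and 29, against 311. The cause was not tested. Levels per length were not run, for want of exonic lengths.

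Log2 values changed sign in 48 cases, and there none reached 0.08 in size. *Slc32a1* in *WaplΔ/+* brains went to -0.029 with the block, -0.077 in low *mt-Nd3* libraries and -0.011 with the *mt-Nd3* term, and in double heterozygotes to 0.020 in high *mt-Nd3* libraries. *Gad1* in double heterozygotes went to -0.00096 without a filter, -0.0030 with TMM factors of all libraries and -0.035 in high *mt-Nd3* libraries, and its interaction to 0.00034 in low ones. Double heterozygotes against *Nipbl+/−* went with the block to 0.0056 for *Dlx6*, 0.024 for *Gad2* and -0.011 for *Sst*, in low *mt-Nd3* libraries to 0.0035 for *Gad2* and -0.012 for *Sst*, and with the term to 0.0062 for *Gad2* and -0.0094 for *Sst*. Against *WaplΔ/+* they went in low, in high and with the term to -0.054, -0.012 and -0.028 for *Dlx5* and to -0.0058, -0.0100 and -0.0038 for *Gad2*, and *Gad1* went to -0.019 in high ones. With a library left out, the range crossed 0 from -0.041 to 0.068 for *Slc32a1* in *Nipbl+/−* brains, from -0.019 to 0.028 for *Slc32a1* in *WaplΔ/+* brains and from -0.0077 to 0.018 for *Gad1* in double heterozygotes. Against *Nipbl+/−* it ran from -0.14 to 0.0043 for *Dlx1*, -0.19 to 0.021 for *Dlx5*, -0.054 to 0.0077 for *Gad2* and -0.032 to 0.062 for *Sst*. Against *WaplΔ/+* it ran from -0.086 to 0.011 for *Dlx1*, -0.036 to 0.075 for *Dlx5*, -0.0046 to 0.043 for *Gad2* and -0.065 to 0.012 for *Lhx6*. In the interaction it ran from -0.076 to 0.024 for *Gad1* and -0.097 to 0.00028 for *Sst*.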
